A study of Homo sapiens with 10 samples.

Results

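The genes described here encode the 5 neuronal intermediate filament proteins: the neurofilament light, medium and heavy chains (NEFL, NEFM and NEFH), alpha-internexin (INA) and peripherin (PRPH). They were taken by gene symbol from a table of 46427 genes. The family was chosen by its measured counts in these same libraries: in earlier results NEFL had run against other neuronal genes. All 5 were found and all 5 had enough counts to be tested, among 19465 genes tested. The RNA came from ReNcell VM neurospheres. ReNcell VM is an immortalised line of human neural progenitors, so the results come from 1 line and not from a range of donors. Spheres had been grown for 4 days from 8000 cells per well and then differentiated for 6 days in the presence of a test compound, and RNA of 6 spheres was combined for a library. The 10 libraries make 5 groups of 2. The vehicle group received 0.1% DMSO, and the groups labelled DEP, DProP, DPP and Mix each received 100 µM. DEP is diethyl phthalate, a solvent and plasticiser ester found in personal care products. DProP and DPP are not spelled out in the labels and the contents of Mix are not listed, so no structure is assigned to them and Mix is not set against the sum of its parts. Whether a group's libraries are from different cultures is also unstated, so each p-value measures the spread between these libraries only, which may be technical.

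Intermediate filaments give axons their calibre and mechanical strength. NEFL forms the core of the neurofilament and is needed for the other chains to assemble, while NEFM and NEFH carry long phosphorylated tails that stand out from the filament as side arms. INA is the first of the neurofilament partners to appear in young neurons of the central nervous system and can assemble alone. PRPH is found mainly in neurons that send axons into the periphery. In development NEFL and NEFM are known to appear before NEFH, whose level rises as axons mature.

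INA (gene identifier 9118) lies at chr10:103277138-103290346 and PRPH (5630) at chr12:49295147-49298686, in the RefSeq annotation of GRCh38.p14. Promoter sequence was at hand for INA and PRPH, the pair that lay below vehicle in every treated library. The 250 bases before each start are shown 5′ to 3′ on the plus strand, from RefSeq on GRCh38.p14, at chr10:103276888-103277137 for INA and chr12:49294897-49295146 for PRPH. Capitals mark CANNTG, the E-box core that proneural factors of the basic helix-loop-helix class can bind.
INA: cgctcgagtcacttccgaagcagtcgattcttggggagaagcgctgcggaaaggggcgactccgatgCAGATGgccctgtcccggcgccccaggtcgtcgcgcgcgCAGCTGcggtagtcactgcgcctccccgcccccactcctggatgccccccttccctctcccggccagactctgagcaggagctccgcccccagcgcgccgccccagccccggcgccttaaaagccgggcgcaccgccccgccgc
PRPH: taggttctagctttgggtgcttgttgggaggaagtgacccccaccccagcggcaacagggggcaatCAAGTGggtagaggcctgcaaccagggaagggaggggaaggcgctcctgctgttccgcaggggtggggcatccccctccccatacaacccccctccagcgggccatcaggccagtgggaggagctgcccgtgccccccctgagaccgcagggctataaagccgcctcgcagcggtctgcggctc
INA has 2 such matches, CAGATG and CAGCTG, which begin 183 and 144 bases before the start. PRPH has 1, CAAGTG, at 184 bases. The motif is common: on either strand it occurs in 61.8% of 34943 RefSeq windows of the same length. The windows differ in their other elements. INA holds 4 copies of GGGCGG, the GC box, all read as CCGCCC on the strand shown, at 119, 61, 47 and 12 bases before the start, and no TATAAA. PRPH holds TATAAA at 31 bases and no GGGCGG. Among all windows 42.5% hold GGGCGG and 10.8% hold TATAAA on either strand. Neither window holds CCAAT, which 32.0% of all windows do, and no match overlaps another motif. The GC content is 72.8% for INA and 66.8% for PRPH, against a median of 58.0% over all windows. These are matches of letters only and say nothing of binding.

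Library totals ran from 57222381 to 72973100 counts, so the members were read at 644 to 2267 counts for NEFL, 2512 to 6321 for INA, 219 to 339 for NEFM, 94 to 415 for PRPH and 32 to 61 for NEFH. Vehicle and the 8 treated libraries differed in other RNAs too. Mitochondrially encoded genes took 0.0255% to 0.0343% of counts in vehicle against 0.0825% to 0.107% in treated libraries. The nuclear RNA MALAT1 took 0.946% to 1.25% against 0.342% to 0.394%. Fold changes against vehicle also ran with GC content across 14819 genes (Spearman rho of -0.344 to -0.278), and those between treatments much less so (-0.132 to 0.0668). The part of these features in the members' differences from vehicle was not tested. In bulk RNA, fewer neurons and less RNA per neuron cannot be told apart. Neuronal identity was checked on marker lists. Early neuronal genes, such as DCX and TUBB3, summed to 4247 to 7207 CPM (counts scaled to the size of the library) per library. TUBB3 gave 234 to 713 CPM of this sum, so most of it came from other genes of the list. Microglial markers summed to 0.0478 to 0.453 CPM, with AIF1 at 0 in all libraries. Of 11 peripheral and motor neuron markers, SCN10A, DBH, CHAT and SLC5A7 were among those at 0 in all libraries, and the list summed to 9.13 to 17.6 CPM. Most of that sum was SCN9A, a sodium channel of sensory and sympathetic neurons, read at 6.95 to 16.6 CPM, which was higher than vehicle in DProP by 0.77 ± 0.15 and in DPP by 0.91 ± 0.15 on the log2 scale. The part of such cells in the PRPH values was not tested.

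Compared per transcript length, INA was the most abundant member in every group. In vehicle its level was 31.6 ± 1.35 CPM per kilobase (mean ± SD, n = 2 here and below), against 4.45 ± 0.192 for NEFL, 1.91 ± 0.136 for PRPH, 1.12 ± 0.127 for NEFM and 0.199 ± 0.0397 for NEFH. The heavy chain was the least abundant in every group, at 0.138 ± 0.0276 CPM per kilobase in DEP and 0.211 ± 0.0127 in Mix, its lowest and highest groups. The gap between the most abundant members depended on treatment. In DPP, NEFL stood at 7.83 ± 0.826 CPM per kilobase beside 12.2 ± 0.581 for INA, whereas in Mix it stood at 2.41 ± 0.146 beside 23.8 ± 1.47.

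**Figure D1:**
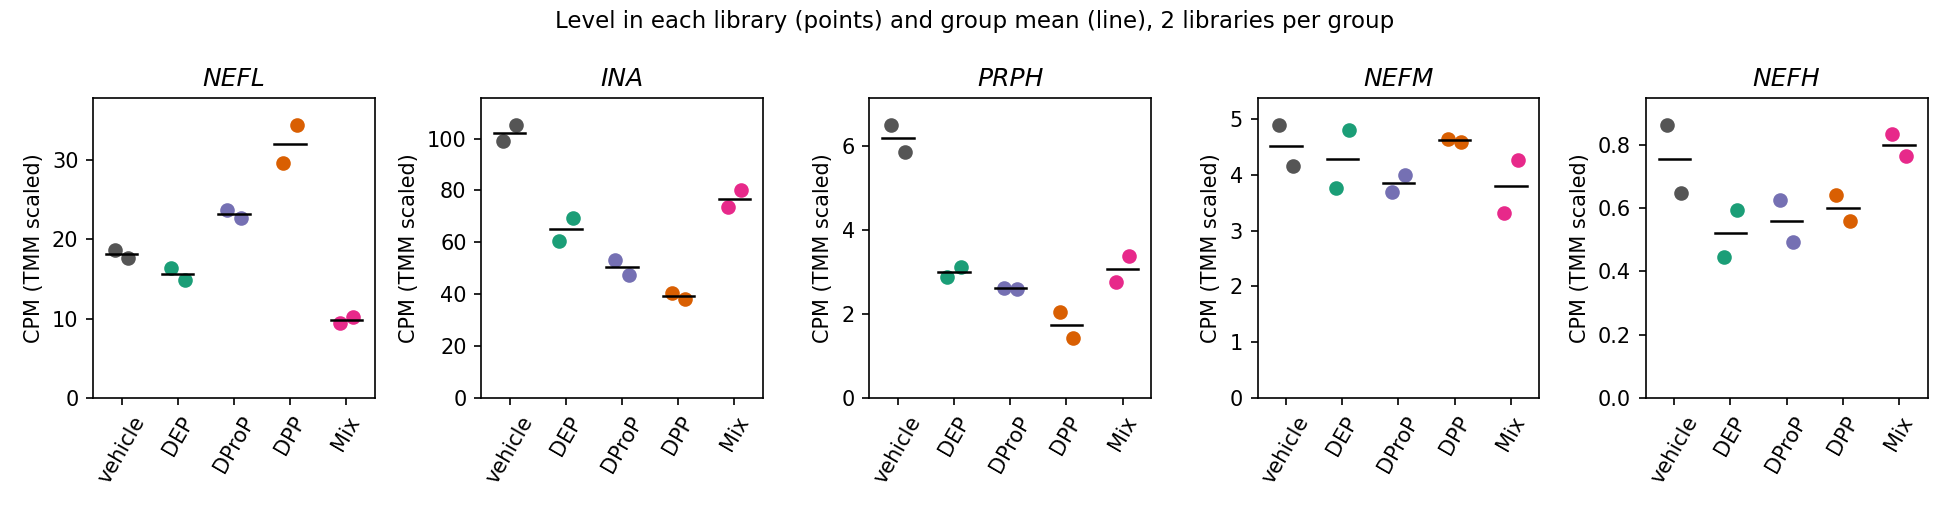
Level of each gene in CPM (y axis, TMM scaled, one panel and one scale per gene) in the 2 libraries of each group (points), with the group mean as a line. NEFL is highest in DPP and lowest in Mix, INA and PRPH are highest in vehicle and lowest in DPP, the libraries of NEFM overlap across most groups, and those of NEFH are higher in vehicle and Mix than in the single compounds.

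NEFL, the core chain, was highest in DPP and lowest in Mix, with vehicle between them. Its level was 18.7 and 17.6 CPM in the vehicle libraries, 16.4 and 14.9 in DEP, 23.7 and 22.7 in DProP, 29.6 and 34.3 in DPP, and 9.42 and 10.3 in Mix. The libraries of no group overlapped those of another, and the order from low to high was Mix, DEP, vehicle, DProP and DPP. Neighbours in this order were closest for DEP and vehicle, where the gap between the nearest libraries was of the size of the gap within each group. The values against vehicle belong to the measure by which the family was chosen and are given as a description. On the log2 scale NEFL lay 0.82 ± 0.10 above vehicle in DPP (fold change ± SE) and 0.35 ± 0.10 above it in DProP. In DEP the value was -0.22 ± 0.10 and in Mix -0.88 ± 0.10. NEFL was thus 1.76 times the vehicle level in DPP, and vehicle was 1.85 times the level in Mix. The adjusted p for DProP rose above 0.05 without DProP library 1 (log2 0.32) or vehicle library 2 (0.31).

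INA, the filament protein of young central neurons, lay below vehicle in all 8 treated libraries. Its level was 98.9 and 105 CPM in vehicle, 60.7 and 69.3 in DEP, 53.3 and 47.6 in DProP, 40.7 and 38.0 in DPP, and 73.5 and 80.2 in Mix. Again no group overlapped another, but the order was another one, running down from vehicle through Mix, DEP and DProP to DPP. The log2 fold change against vehicle was -0.65 ± 0.08 in DEP, -1.02 ± 0.08 in DProP, -1.37 ± 0.08 in DPP and -0.41 ± 0.08 in Mix. DPP, the group where NEFL was highest, was the group where INA was lowest. The Mix value missed the threshold without Mix library 1, at -0.35.

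PRPH, the peripherin gene, also lay below vehicle in all 8 treated libraries. It was read at 6.50 and 5.87 CPM in vehicle, 2.89 and 3.11 in DEP, 2.62 and 2.61 in DProP, 2.05 and 1.42 in DPP, and 2.76 and 3.38 in Mix. Only DEP and Mix overlapped, and DPP was again the lowest group. Its log2 fold changes against vehicle were -1.04 ± 0.19 in DEP, -1.24 ± 0.19 in DProP, -1.83 ± 0.20 in DPP and -1.01 ± 0.19 in Mix. A lncRNA, TROAP-AS1, overlaps PRPH and had 0 to 16 counts in a library. The strand setting of the counting is not stated, so reads of the pair cannot be told apart.

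NEFM and NEFH, the side-arm chains, showed no called difference in any of the 10 comparisons. NEFM (gene identifier 4741) lies beside NEFL (4747) on chromosome 8, separated from it by 31.9 kb, and NEFH (4744) lies at chr22:29480218-29491390 on GRCh38.p14. NEFM was read at 4.88 and 4.16 CPM in vehicle, 3.75 and 4.80 in DEP, 3.70 and 4.00 in DProP, 4.65 and 4.59 in DPP, and 3.32 and 4.27 in Mix. NEFH was read at 0.861 and 0.648 CPM in vehicle, 0.447 and 0.594 in DEP, 0.624 and 0.492 in DProP, 0.642 and 0.560 in DPP, and 0.832 and 0.765 in Mix. In NEFM most groups overlapped, the exceptions being DProP below vehicle and below DPP, and Mix below DPP. In NEFH the libraries of DEP, DProP and DPP overlapped one another and lay below those of vehicle and Mix, which overlapped. Against vehicle NEFM lay between -0.26 (Mix) and 0.03 (DPP) on the log2 scale with SEs of 0.17 to 0.18, and NEFH between -0.54 (DEP) and 0.08 (Mix) with an SE of 0.30 in each comparison. With at most 61 counts in a library, a NEFH difference as large as that of INA between Mix and DPP would lie within the 95% interval of the NEFH estimate, which ran from -0.24 to 1.06. For neither gene was the unadjusted p below 0.05, nor did DESeq2 make a call, in any of the 4 comparisons with vehicle or the 6 between treatments. NEFM next door to NEFL therefore gave no call in the comparisons in which NEFL moved most: between Mix and DPP its log2 difference was -0.29, with a 95% interval of -0.67 to 0.10, whereas that of NEFL ran from -1.92 to -1.48. The difference between the genes was not tested. Copies elsewhere in the genome took few reads (0 counts for NEFHP1 and 0 to 3 for NEFMP1), as did MIR6841 within NEFL (0 to 4).

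Against vehicle, the threshold was passed by 2 of the 5 genes in DEP, where 23.6% of all tested genes passed it, by 3 of 5 in DProP (32.2%), 3 of 5 in DPP (36.2%) and 3 of 5 in Mix (20.4%). INA and PRPH passed in each, lower, and NEFL in DProP and DPP, higher, and in Mix, lower. These comparisons share the vehicle libraries and were used in choosing the family, so nothing is read from the counts.

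**Figure D2:**
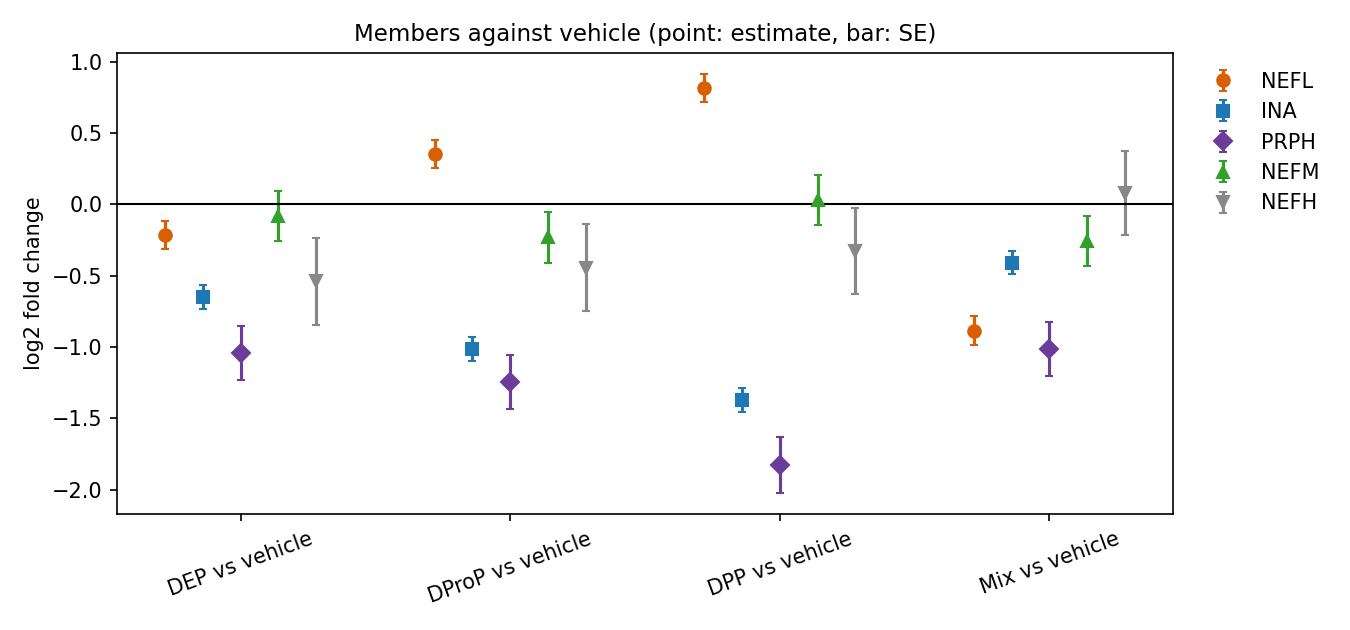
Log2 fold change of each gene against vehicle (y axis; point, estimate; bar, SE) in the 4 treatments (x axis). INA and PRPH lie below 0 in each treatment, NEFL lies at 0.82 in DPP and -0.88 in Mix, and the NEFM and NEFH values lie nearer to 0 than those of PRPH.

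Because the members moved apart, the make-up of the family shifted. NEFL took 14.4% and 13.2% of the family's counts in the vehicle libraries, 19.4% and 16.1% in DEP, 28.3% and 29.3% in DProP, 38.1% and 43.5% in DPP, and 10.5% and 10.4% in Mix. This share is taken within a library and does not depend on the scaling between libraries. INA made up 77.5% ± 1.85 in vehicle, 73.5% ± 1.85 in DEP, 62.5% ± 1.37 in DProP, 50.3% ± 3.01 in DPP and 81.5% ± 0.503 in Mix. The other 3 genes together held a narrow range, from 8.10% ± 0.579 in Mix to 8.89% ± 0.800 in DPP. There were 0.178 ± 0.0153 NEFL counts per INA count in vehicle, 0.814 ± 0.124 in DPP and 0.128 ± 0.000145 in Mix. Between the neighbouring chains, NEFL to NEFM was 4.03 ± 0.282 in vehicle, 3.73 ± 0.882 in DEP, 6.04 ± 0.534 in DProP, 6.92 ± 0.791 in DPP and 2.62 ± 0.309 in Mix. The summed level of the family followed INA, its largest member: it was 132 ± 2.47 CPM in vehicle, 88.5 ± 6.07 in DEP, 80.7 ± 4.59 in DProP, 78.3 ± 0.949 in DPP and 94.4 ± 6.41 in Mix. With 2 libraries against 2, no exact test of a share can pass 0.05, and none was made.

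**Figure D3:**
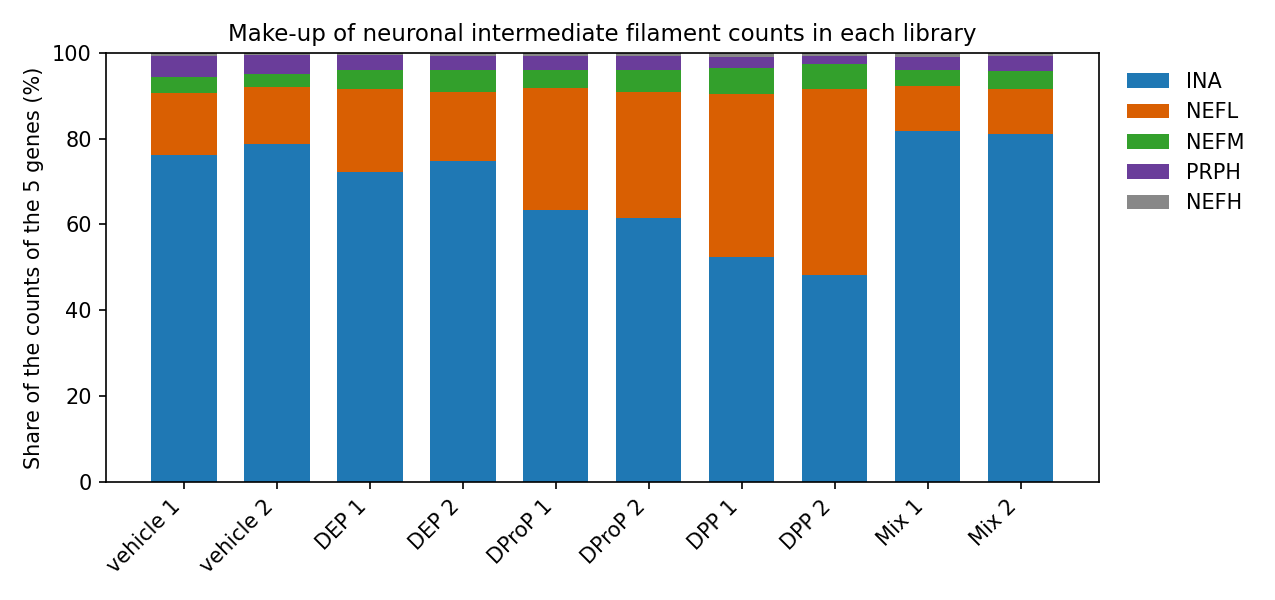
Share of the counts of the 5 genes (y axis, %) taken by each gene (stacked bars) in each of the 10 libraries (x axis). The NEFL band widens from 13.2% and 14.4% in vehicle to 38.1% and 43.5% in DPP and is narrowest in Mix, at 10.4% and 10.5%.

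Between treatments, all at the labelled 100 µM, 6 pairs of groups were compared. The vehicle libraries entered these only through the choice of genes tested, the scaling and the pooled spread. The rule that chose the family does not say on which comparisons NEFL ran against other genes, so the p-values of NEFL are not independent evidence. NEFL was higher in DPP than in DEP by 1.03 on the log2 scale (95% interval 0.82 to 1.24, adjusted p = 0.000800, edgeR's quasi-likelihood test with Benjamini-Hochberg adjustment over all genes). It was higher in DProP than in DEP by 0.57 (0.36 to 0.78, adjusted p = 0.0284 in edgeR). Between DPP and DProP the difference was 0.46 (0.25 to 0.67), which missed the threshold (adjusted p = 0.0763 in edgeR), although every DPP library lay above both of DProP. DProP and DPP thus each differed from DEP in NEFL. The interval for DPP against DProP lay above 0 but is not adjusted for the number of genes tested. The DProP to DEP call was lost when any 1 of its 4 libraries was left out, with edgeR adjusted p of 0.0671 to 0.316.

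In Mix, NEFL was lower than in each single compound. It fell by 1.70 on the log2 scale, a 3.25-fold difference, relative to DPP (95% interval -1.92 to -1.48, adjusted p = 5.31e-06 in edgeR). Relative to DProP the difference was -1.24 (-1.46 to -1.02, adjusted p = 0.000154 in edgeR) and relative to DEP -0.67 (-0.89 to -0.45, adjusted p = 0.00574 in edgeR). Both Mix libraries were below both libraries of every other group. The call against DEP was lost without DEP library 1 (adjusted p = 0.101 in edgeR) or Mix library 1 (0.0658).

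The INA estimate had the sign opposite to that of NEFL in each of the 6 pairs, and 3 were called. INA was higher in Mix than in DPP by 0.96 (95% interval 0.78 to 1.15, adjusted p = 3.80e-05 in edgeR) and than in DProP by 0.61 (0.43 to 0.79, adjusted p = 0.00174), and lower in DPP than in DEP by a log2 difference of -0.72 (-0.91 to -0.54, adjusted p = 0.00110). The remaining differences missed the threshold in edgeR. That between DProP and DEP was -0.37 (-0.55 to -0.18, adjusted p = 0.0777), that between DPP and DProP -0.36 (-0.54 to -0.17, adjusted p = 0.114) and that between Mix and DEP 0.24 (0.06 to 0.42, adjusted p = 0.135). None of these groups overlapped in INA.

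PRPH passed in 1 pair: it was higher in Mix than in DPP by 0.82 (95% interval 0.39 to 1.24, adjusted p = 0.0146 in edgeR), a call lost without DPP library 2 (adjusted p = 0.121) or Mix library 2 (0.104). Its difference between DPP and DEP was -0.79 (-1.21 to -0.36, adjusted p = 0.0551 in edgeR), and passed without DPP library 1 (0.0214). For the other 4 pairs the edgeR adjusted p of PRPH was 0.245 or above. The widest of their intervals, for DPP against DProP, ran from -1.02 to -0.16, and Mix and DEP differed by 0.03 (-0.38 to 0.44).

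For NEFM the 6 differences lay between -0.29 and 0.26, with intervals that reached from -0.67 to 0.64 (edgeR adjusted p 0.298 to 0.963). For NEFH they lay between 0.10 and 0.62, with intervals from -0.58 to 1.27 (edgeR adjusted p 0.292 to 0.944). NEFH gave its 3 largest values in the pairs with Mix, whose libraries lay above those of each single compound. An adjusted p that misses the threshold does not show that the compounds act alike on these genes.

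Counted by pair, 1 of the 5 genes was called for DProP against DEP, where edgeR called 0.524% of all genes, and 2 of 5 for DPP against DEP (2.93%). None was called for DPP against DProP (0.262% of all genes in edgeR), where 3 had an unadjusted p under 0.05 and DESeq2 called 2. Mix gave 1 of 5 against DEP (3.86%), 2 of 5 against DProP (6.89%) and 3 of 5 against DPP (17.3%). NEFL is among the called genes in each pair with a call, so these shares are not read against the background.

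**Figure D4:**
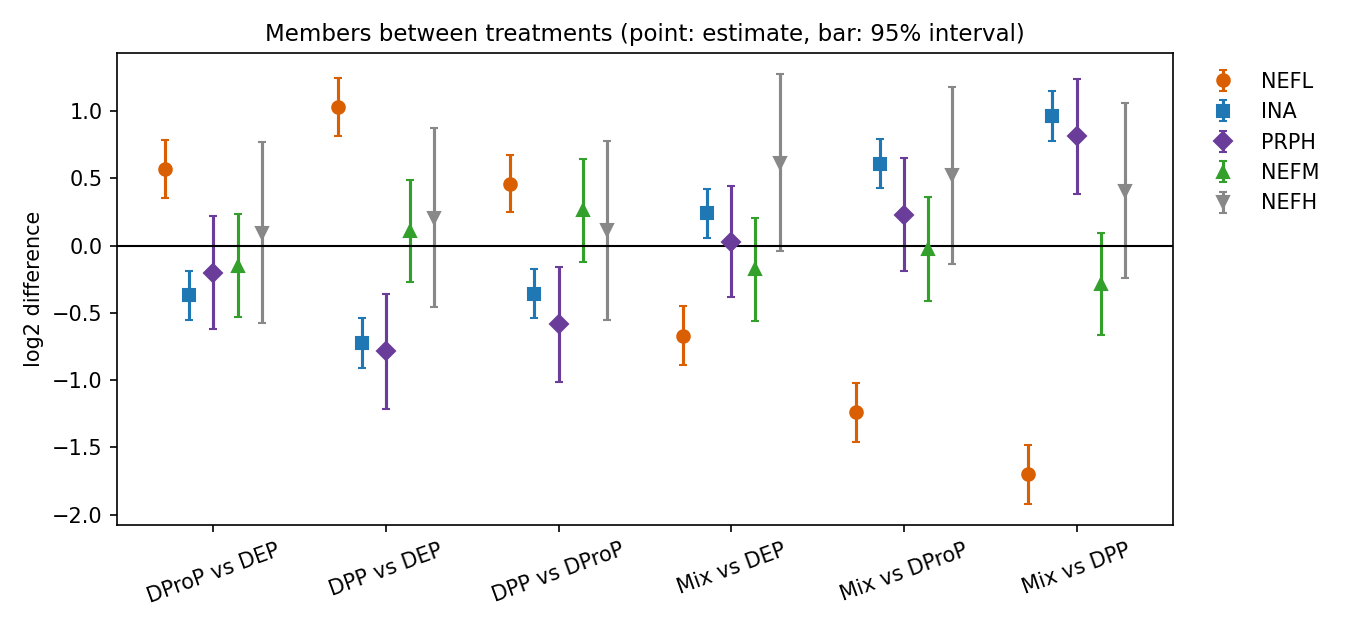
Log2 difference of each gene (y axis; point, estimate; bar, 95% interval) in the 6 pairs of treatments (x axis). NEFL and INA lie on opposite sides of 0 in every pair, from -1.70 for NEFL to 0.96 for INA between Mix and DPP.

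NEFL was set beside 22 early and 15 later neuronal genes, a list written with these results known, so the values describe the pattern by which the family was picked. The fold change of NEFL was above that of all 37 in DProP and in DPP against vehicle, and below that of all 37 in Mix against vehicle. The median of the 37 was -0.59 in DProP, -0.56 in DPP and -0.15 in Mix on the log2 scale, the last being -0.01 when scaled by library size alone. In DEP, NEFL lay within the list, with 12 genes above it and 25 below, and the median was -0.34. Between treatments NEFL lay above all 37 in DProP and DPP against DEP and below all 37 in Mix against DEP, DProP and DPP. For DPP against DProP only GRIN1 (2.89, edgeR adjusted p = 0.498), an NMDA receptor subunit, lay above it.

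Among neuronal genes the calls between Mix and DPP lay in the direction of INA. Of the 22 early genes, 17 were higher in Mix than in DPP and none lower in edgeR, where 10.4% of all genes were called higher, and the median difference was 0.93 beside -0.01 over all genes. Of the same 22, 14 were higher in Mix than in DProP (4.36% of all genes) and 10 were lower in DPP than in DEP (1.58%). Fitted without the vehicle libraries the counts were 17, 11 and 7. In each of the other 3 pairs at most 2 of the 22 were called. Against vehicle 22, 26, 25 and 11 of the 37 were called lower in DEP, DProP, DPP and Mix, the direction of INA. Of all genes 13.5%, 17.5%, 19.5% and 10.7% were called lower. A few neuronal genes were called higher where INA lay lower. They were 2 of the 37 in DPP, where 16.7% of all genes were called higher, and 3 of the 37 in Mix (9.71%). Those in DPP were GAP43, a growth cone protein, and SCN2A, a sodium channel, by 0.46 and 0.43. NEUROD1, a proneural transcription factor, was read at 13.5 and 12.6 CPM in Mix and 3.10 and 2.60 in DPP, a log2 difference of 2.19 ± 0.17 (adjusted p = 2.04e-05 in edgeR). ELAVL3, an RNA-binding protein of neurons, stood at 43.0 and 49.9 CPM in Mix and 21.0 and 14.9 in DPP, a difference of 1.37 ± 0.13. Of the 15 later genes 6 were higher in Mix than in DPP, among them SNAP25, a protein of vesicle fusion, by 0.95 ± 0.14. In this comparison NEFL was lower in Mix, while 23 of the 37 other neuronal genes were called higher and 0 lower.

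**Figure D5:**
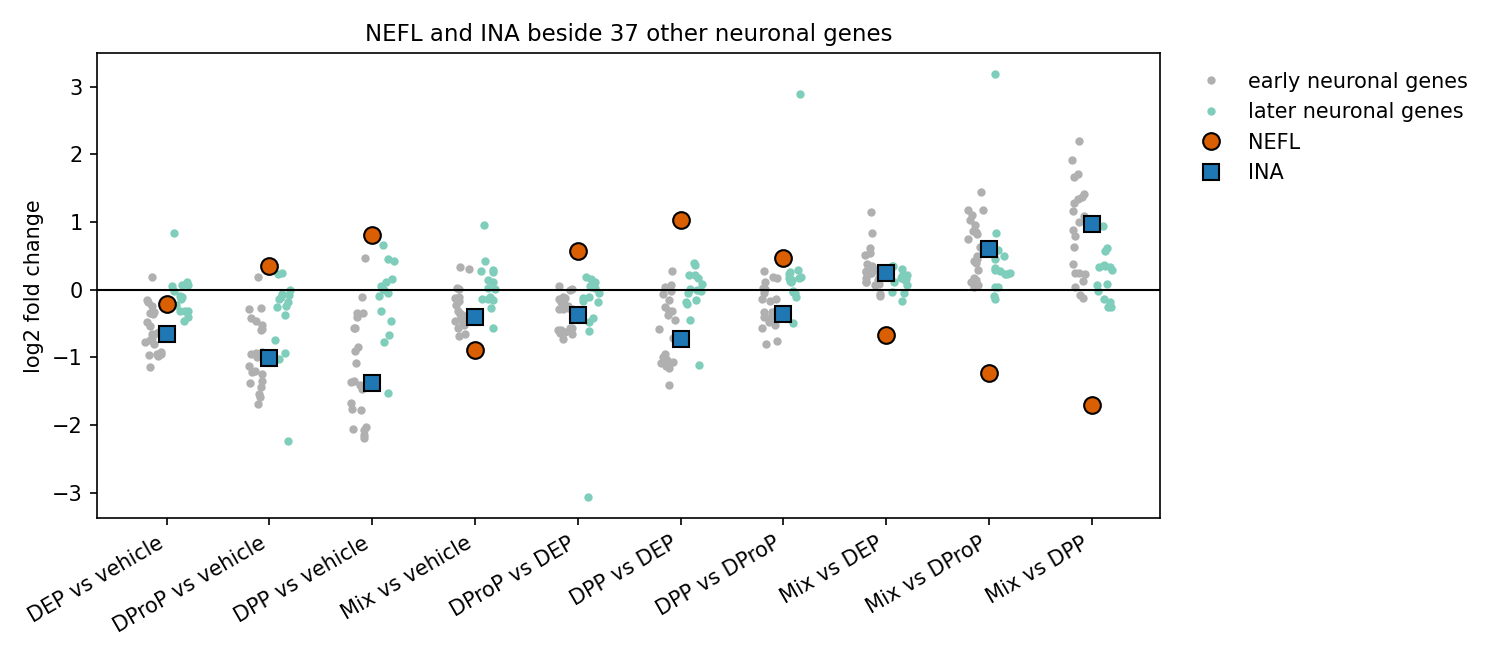
Log2 fold change (y axis) of 22 early neuronal genes, 15 later neuronal genes, NEFL and INA in the 10 comparisons (x axis), with 1 small point per gene. NEFL is the outermost value among these genes at the top in DPP against DEP (1.03) and at the bottom in Mix against DPP (-1.70), where INA lies at 0.96.

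Genes that move, modify and clear neurofilaments were followed from lists chosen with earlier results known. Of 10 linkers and motors, 3 were higher and 1 lower in Mix than in DPP, where 10.4% of all genes were called higher and 6.82% lower. KIF5A, a kinesin heavy chain that carries neurofilaments along axons, was read at 108 and 111 CPM in Mix, 63.9 and 61.0 in DPP and 113 and 110 in vehicle. Mix thus differed from vehicle by -0.02 ± 0.07 on the log2 scale and was higher than DPP by 0.81 ± 0.07 (adjusted p = 2.68e-05 in edgeR). KIF5C, a second kinesin of this family, was higher in Mix than in DPP by 0.48 ± 0.06. Against vehicle 5 of the 10 were lower in DEP (13.5% of all genes called lower), 5 in DProP (17.5%), 5 in DPP (19.5%) and 1 in Mix (10.7%). Called higher were 0, 1, 1 and 0 of them, beside 10.1%, 14.7%, 16.7% and 9.71% of all genes. The list's medians, -0.14, -0.13, -0.17 and -0.06, became 0.02, 0.05, -0.01 and 0.09 with library size alone, a scaling that moved the median of all genes by 0.14 to 0.18. With the GC and length correction the list's medians were -0.16, -0.14, -0.10 and -0.11. PLEC, the cytolinker plectin, was lower than vehicle in all 4 treatments, by log2 values of -0.53 to -0.37.

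Among 19 kinases, phosphatases and their partners, 3 were higher and none lower in Mix than in DPP, where 10.4% of all genes were called higher and 6.82% lower. Fitted without the vehicle libraries 3 were higher and 1 lower. CDK5R1, the p35 activator of CDK5, which phosphorylates neurofilament tails, was read at 54.8 and 52.8 CPM in Mix and 29.8 and 31.9 in DPP, a difference of 0.80 ± 0.07 (adjusted p = 3.63e-05 in edgeR). It was also lower in DPP than in DEP (-0.41 ± 0.07, adjusted p = 0.00836 in edgeR), opposite to NEFL in both pairs. CAMK2A, a calcium-dependent kinase, was read at 9.84 and 8.74 CPM in DPP and 5.43 and 4.64 in DEP, higher by 0.88 ± 0.17 (adjusted p = 0.0176 in edgeR). Its value in Mix was 0.49 ± 0.17 against DEP and -0.39 ± 0.17 against DPP, neither of them called. Against vehicle 1, 2, 5 and 1 of the 19 were higher in DEP, DProP, DPP and Mix, where 10.1%, 14.7%, 16.7% and 9.71% of all genes were called higher. Called lower were 3, 6, 3 and 3 of them, beside 13.5%, 17.5%, 19.5% and 10.7% of all genes. The medians of the list lay within 0.07 of 0. With library size alone those medians were 0.09 to 0.14.

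Of 8 genes of filament turnover and chaperoning, 5, 6, 5 and 6 were lower than vehicle in DEP, DProP, DPP and Mix, where 13.5%, 17.5%, 19.5% and 10.7% of all genes were called lower. Called higher were 1, 1, 0 and 1 of them, beside 10.1%, 14.7%, 16.7% and 9.71% of all genes. The medians were -0.25, -0.33, -0.33 and -0.25, and with library size alone -0.09, -0.15, -0.18 and -0.10, while the GC and length correction took that of Mix to -0.05. Between Mix and DPP, 3 of the 8 were higher in Mix and none lower, where 10.4% of all genes were called higher and 6.82% lower. HSPB1, a small heat shock protein that binds intermediate filaments, was read at 74.7 and 71.5 CPM in vehicle and 37.9 to 51.9 in the treated libraries, with log2 fold changes of -0.85 to -0.58. TRIM2, a ubiquitin ligase that targets NEFL, fell by 0.38 in DEP, 0.54 in DProP, 0.59 in DPP and 0.51 in Mix. Its part in the NEFL values was not tested. Of 9 regulators of neurofilament genes or mRNAs, 2, 2, 1 and 2 were higher than vehicle in DEP, DProP, DPP and Mix. Of all genes 10.1%, 14.7%, 16.7% and 9.71% were called higher. In each comparison 1 of the 9 was called lower, beside 13.5%, 17.5%, 19.5% and 10.7% of all genes. RCOR1, the co-repressor that works with REST, was higher by 0.28, 0.33, 0.19 and 0.30 on the log2 scale. ARHGEF28, an RNA-binding exchange factor that destabilises NEFL mRNA, was read at 13.3 and 13.6 CPM in Mix, 9.15 and 8.90 in DPP and 7.65 and 7.71 in vehicle. It was higher in Mix than in DPP by 0.57 ± 0.10 (adjusted p = 0.00198 in edgeR) and higher in Mix than in DEP by 0.46 ± 0.10. It was read at 12.2 and 12.2 CPM in DProP and 10.1 and 9.39 in DEP. ARHGEF28 in Mix differed from DProP by 0.14 ± 0.09 on the log2 scale (adjusted p = 0.461 in edgeR). Against vehicle it was higher by 0.34 in DEP, 0.67 in DProP and 0.81 in Mix, and its 0.23 in DPP was not called. Its part in the NEFL values was not tested.

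Of 11 listed genes of other intermediate filaments, nuclear lamins among them, 9 were tested. Between Mix and DPP, 3 of the 9 were lower in Mix, the direction of NEFL, and none was higher, where 6.82% of all genes were called lower. These were LMNA, NES (-0.20 ± 0.06, adjusted p = 0.0348 in edgeR), the nestin gene of progenitors, and SYNM (-0.24 ± 0.06, adjusted p = 0.0210), which encodes synemin. Fitted without the vehicle libraries 4 were lower. SYNM was also lower in Mix than in DProP (-0.29 ± 0.06, adjusted p = 0.0163 in edgeR). VIM, the vimentin of progenitors and glia, stood at 2702 and 2678 CPM in vehicle and 1296 to 1466 in the treated libraries, lower by 0.95 to 0.98 in each treatment on the log2 scale, and its differences between treatments ran from -0.03 to 0.01 with no call in edgeR. GFAP, the filament of astrocytes, stood at 4550 to 4769 CPM in vehicle and 2314 to 2777 in treated libraries. LMNA, the nuclear lamin A gene, was lower in Mix than in DPP (log2 difference -0.55 ± 0.08, adjusted p = 0.00101 in edgeR), with 94.4 and 116 CPM against 155 and 153. Astrocyte markers summed to 5067 to 5085 CPM in vehicle and 2883 to 3442 in treated libraries, and progenitor markers to 3664 to 3707 and 2417 to 2802. The part of these lists in the members' values was not tested.

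The genes whose level ran closest to each member were sought among protein-coding genes (11259 for NEFL and INA, 11260 for the others) by Pearson correlation of log2 CPM, as a description over libraries that share groups. Closest to NEFL over 10 libraries was CELSR1, an atypical cadherin (r = 0.97), with group means of 602 CPM in vehicle, 615 in DEP, 692 in DProP, 785 in DPP and 461 in Mix. ME1, ATP10A, L3HYPDH and KCNA4 followed, at r of 0.96 to 0.97. Over the 8 treated libraries TRAM2, DCBLD2 and CDH2 came first, each at r of 0.99 or above. DCBLD2 had group means of 197 CPM in DEP, 253 in DProP, 304 in DPP and 147 in Mix. No gene of the early or later neuronal lists is among these 8. Those lists hold 37 genes, beside 11259 ranked, so nothing is read from this absence. For INA the closest over 10 libraries were NXPH4, RGMB, SNCAIP, GRIN2D and INSM1, at r of 0.98 to 0.99. INSM1, a transcription factor of newborn neurons, had group means of 55.8 CPM in vehicle, 31.9 in DEP, 21.5 in DProP, 16.5 in DPP and 41.5 in Mix. For PRPH they were TCTEX1D1, VWA3A, MYL9, IGDCC3 and ZNF276, at r of 0.98 to 0.99. MYL9, a myosin light chain of smooth muscle, is in the mesenchymal marker list, which summed to 172 to 173 CPM in vehicle and 72.0 to 98.9 CPM in treated libraries, so these markers too were higher in vehicle, and their part in the PRPH values was not tested. Within the family INA and PRPH ran together (r = 0.93 over 10 libraries), while NEFL and INA ran opposite over the 8 treated libraries (r = -0.97) and less closely over all 10 (r = -0.68). NEFM, with its narrow range, reached at most r = 0.91 over 10 libraries, with PRDX6, and 0.92 over the 8 treated ones, with ZNF791. NEFH, with few counts, reached 0.95 with USP38 and 0.98 with CTR9.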

How the data were processed

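RNA-seq was analysed in 10 libraries. The authors deposited raw counts per NCBI gene identifier, neither normalised nor filtered. Libraries were made by SureSelect RNA Direct exome capture after Maxwell purification, per the labels' protocols. The submitters' processing notes list the build GRCh38, R 4.3.2, edgeR 4.0.9, StringTie 2.1.3b, HISAT2 2.1.0, FastQC and Trimmomatic 0.38. The counting tool, annotation and strand setting: not given in the sources used here. Exome capture makes levels depend on baits, so levels between genes are approximate.

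Counts were fitted with edgeR 4.0.16 in R 4.3.3 (filterByExpr by group, TMM scaling, robust quasi-likelihood fit of all 10 libraries, 5 residual degrees of freedom). Adjusted p-values follow Benjamini and Hochberg over 19465 genes per comparison, with a threshold of 0.05. The SE was taken as the absolute log2 fold change over the square root of F. The common biological coefficient of variation came to 9.40%. The script was tested on simulated data.

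CPM per kilobase uses the longest GENCODE v29 transcript (GC and length found for 86.1% of tested genes). The most alike genes had a mean of at least 5 CPM. Named list genes were those of largest mean change called in all 4 comparisons with vehicle (up to 4 a list), or of largest called difference between treatments (up to 2). Text examples were taken from these, and some list genes are not reported here. The members and lists were chosen with earlier results of these data known. Alternatives were DESeq2 1.42.0, other scalings, no filter, a GC and length correction, a replicate block, each library left out and, added after seeing the data, a fit without the vehicle libraries. Libraries of the same number did not deviate together (r of -0.0465 to 0.0471 over 10 pairs), so numbers were not taken as pairs.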

Additional observations from a re-analysis of the deposited data

How the results depend on the processing

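Of the 20 called values of the members, none changed direction under any alternative, and 5 lost their call only when a library was left out; the report names these. Under the other settings (other scalings, no filter, DESeq2, a GC and length correction, the replicate block) all 20 kept their call. DESeq2 added NEFL and INA for DPP against DProP, INA for DProP against DEP and PRPH for DPP against DEP, and the GC and length correction added the last of these. The depth limits NEFH most, with 32 to 61 counts per library.

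The number of members called was 2 with DESeq2 for DProP against DEP (1 in edgeR) and 2 for DPP against DProP (0 in edgeR). Leaving out a library gave 0 to 0, 0 to 1 and 0 to 1 members for DProP against DEP, DPP against DProP and Mix against DEP. Over all genes DESeq2 called 612 for DProP against DEP (102 in edgeR), 1132 for DPP against DEP (571), 399 for DPP against DProP (51) and 1355 for Mix against DEP (752). The GC and length correction gave 173, 888 and 116 for the first 3 of these. Leaving out a library gave 2075 to 3206 genes for DEP against vehicle, 3976 to 4998 for DProP, 4343 to 6038 for DPP and 1569 to 2902 for Mix. Between treatments it gave 9 to 267 for DProP against DEP, 80 to 747 for DPP against DEP, 5 to 132 for DPP against DProP, 33 to 414 for Mix against DEP, 382 to 774 for Mix against DProP and 1498 to 2676 for Mix against DPP. Fewer libraries enter these fits. The cause of the other shifts was not tested. Per transcript length the NEFL share was 11.3% in vehicle, 14.8% in DEP, 24.5% in DProP, 35.8% in DPP and 8.52% in Mix.

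Values that changed sign had no call. NEFM in DEP against vehicle was 0.00319 with the GC and length correction and 0.0739 with library size alone. Leaving out a library, NEFM ran from -0.270 to 0.0821 in DEP and -0.0811 to 0.148 in DPP against vehicle, -0.316 to 0.0365 for DProP and -0.0545 to 0.298 for DPP against DEP, -0.364 to 0.0138 for Mix against DEP and -0.21 to 0.15 for Mix against DProP. NEFH ran from -0.11 to 0.30 for Mix against vehicle, -0.10 to 0.31 for DProP against DEP and -0.0529 to 0.289 for DPP against DProP, and PRPH from -0.12 to 0.17 for Mix against DEP.

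The replicate block, whose numbers do not pair the libraries, changed no member's call and gave 3147 genes for Mix against DPP, 529 for DPP against DEP and 36 for DPP against DProP. Without both vehicle libraries, a fit added after seeing the data, no member's call changed, and 3518 genes were called for Mix against DPP.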
